A study of Gallus gallus with 12 samples.

Results

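GEM, RASD2 and CDC42EP3 are 3 genes of small GTPase signalling, followed here in the maxillary prominence of the chicken embryo. They were chosen by their strong response to the BMP antagonist Noggin, alone or together with retinoic acid (RA), in these same arrays. Their differences between Noggin and control arrays are therefore a description and carry no test. They are 3 of the 13008 genes that the array annotation names by exactly 1 symbol, and 5 probe sets carry their symbols: 2 for GEM, 1 for RASD2 and 2 for CDC42EP3.

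RNA came from maxillary prominences, mesenchyme together with the covering epithelium, of chicken embryos collected at Hamburger Hamilton stage 18. At stage 15, with 25 somites, every embryo had received 2 beads in the side of the head, and it was then incubated for 16 h at 38 °C. One bead (Affigel blue, 200 µm) carried either Noggin at 1 mg/ml or its Tris solvent, and the other (AG1X2, 100 µm) carried either all-trans RA at 1 mg/ml or its solvent DMSO. The 4 groups were Tris+DMSO (the control, also bead-implanted), Noggin+DMSO, Tris+RA and Noggin+RA. Each group held 3 pools of 12 to 15 prominences, with 1 array per pool, so spreads and p-values refer to differences between pools.

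Small GTPases are molecular switches: they signal while bound to GTP and stop once the GTP is hydrolysed. GEM belongs to the RGK family, GTP-binding proteins of the plasma membrane and cytoskeleton that are known from mammalian cells to inhibit voltage-gated calcium channels and to restrain the kinase ROCK1, which acts on actomyosin. RASD2, also called Rhes, is a RAS-like GTPase best known from the striatum of the mammalian brain. CDC42EP3 is not itself a GTPase: it is a Borg family protein that binds the small GTPase CDC42 and, through septins, organises actin. Noggin binds BMP ligands outside the cell and keeps them from their receptors, and RA acts through nuclear receptors.

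The deposited values are intensities on a linear scale that are never negative. A per-array background level was set at the 95th percentile of 687 probe sets without a chicken gene symbol, mostly for avian viruses, and lay between 31.1 and 49 over the 12 arrays. Differences were taken as log2(intensity + 16) from 1 linear model over all 12 arrays, with their standard error (SE). Of the 5 probe sets, 4 exceeded their array's median on at least 3 arrays and entered the model among 21354 probe sets. The mesenchyme markers PRRX1, TWIST1, MSX1, DLX1 and PDGFRA and the epithelial markers EPCAM, CDH1, TP63, CLDN1 and GRHL3 were above background on 12 of 12 arrays. MSX2 was above it on 11 and ALX4 on 0. In pooled tissue, fewer cells of a type and less RNA per cell cannot be told apart.

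**Figure D1:**
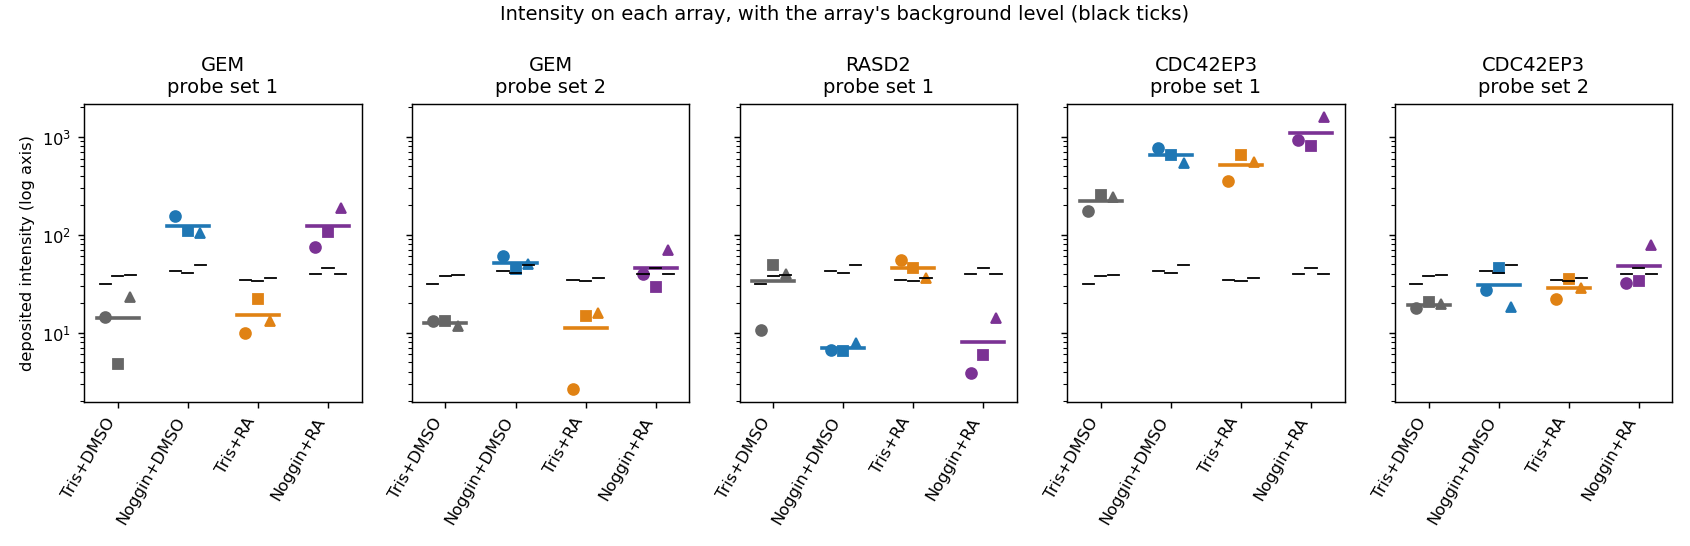
Deposited intensity (log axis) of the 5 probe sets on each of the 12 arrays. Circles, squares and triangles are replicates 1, 2 and 3, coloured bars are group means and black ticks are each array's background level; GEM is above the ticks on the Noggin arrays alone for probe set 1, and RASD2 is below them on all 6 Noggin arrays.

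GEM was above background on the Noggin arrays and not on the others. Its first probe set (the one with the higher mean over the 12 arrays) read 14.6, 4.75 and 23.4 with Tris+DMSO, all below the background level of their arrays. With Noggin+DMSO it read 155, 110 and 104, and with Noggin+RA 74.7, 107 and 188, so that 6 of 6 Noggin arrays were above background. With Tris+RA it read 10.01, 21.9 and 13.2, again below background on every array. The Noggin and Tris arrays did not overlap, whatever the second bead carried.

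The group means of this GEM probe set were 14.2 ± 9.32 (SD, n = 3) for Tris+DMSO, 123 ± 27.8 for Noggin+DMSO, 15 ± 6.16 for Tris+RA and 123 ± 58.6 for Noggin+RA. In order of level the 4 groups formed 2 pairs, and within each pair the arrays overlapped. Because the Tris arrays were not above background, only a lower limit of the fold can be given, from the Noggin mean against the background level of the Tris arrays. This limit does not allow for the higher background of the Noggin arrays. It was at least 2.67-fold for Noggin+DMSO over Tris+DMSO, at least 2.55-fold for Noggin+RA over Tris+DMSO and at least 2.6-fold for Noggin+RA over Tris+RA. The corresponding log2 differences were 2.24, 2.17 and 2.10, each with an SE of 0.299. Non-overlap of 3 arrays with 3 was itself common: it held for 29.8% of the 21354 probe sets between Noggin+DMSO and Tris+DMSO, 19.8% between Noggin+RA and Tris+DMSO and 21.1% between Noggin+RA and Tris+RA. Nothing is read from these shares for the 3 genes, since those contrasts or arrays chose them.

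The second GEM probe set gave the same order of Noggin and Tris arrays at a lower signal. It read 13.2, 13.1 and 11.6 with Tris+DMSO and 60.4, 44.8 and 50.1 with Noggin+DMSO. It read 2.67, 14.9 and 16.0 with Tris+RA and 39.3, 29.3 and 70.0 with Noggin+RA. All 3 Noggin+DMSO arrays but only 1 of the 3 Noggin+RA arrays were above background, and 0 of the 6 Tris arrays. The Noggin+DMSO mean was 1.31-fold above the background level of the Tris+DMSO arrays, and no such value is given for Noggin+RA. The Noggin+DMSO arrays had a higher background, 41 to 49, so 1.31 is not a firm lower limit. Over the 12 arrays the 2 GEM probe sets correlated with a Pearson r of 0.935, and their deviations from the group means correlated with r = 0.575, as a description of arrays that share group, RNA pool and scaling.

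RASD2 went the other way and was close to background throughout. It read 10.7, 49.6 and 39.9 with Tris+DMSO and 55.7, 46.0 and 36.3 with Tris+RA. With Noggin+DMSO it read 6.69, 6.52 and 7.78, and with Noggin+RA 3.91, 5.93 and 14.0. It was above background on 2 of 3 Tris+DMSO arrays, 3 of 3 Tris+RA arrays and 0 of 6 Noggin arrays. The Tris+DMSO array reading 10.7 stood apart from the other two and lay below the highest Noggin+RA array, so those groups overlapped, while Noggin+DMSO lay below every Tris+DMSO array.

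The RASD2 group means were 33.4 ± 20.2 (SD, n = 3) for Tris+DMSO, 7 ± 0.685 for Noggin+DMSO, 46 ± 9.72 for Tris+RA and 7.95 ± 5.34 for Noggin+RA. The log2 difference was -1.0 (SE 0.281) for Noggin+DMSO minus Tris+DMSO, -0.97 for Noggin+RA minus Tris+DMSO and -1.38 for Noggin+RA minus Tris+RA. A lower limit could be set for 1 of these differences: RASD2 was at least 1.07-fold lower with Noggin+RA than with Tris+RA. Without the low Tris+DMSO array the first difference became -1.40 and the second -1.36. With the array reading 49.6 left out instead, they became -0.75 and -0.71. RASD2 entered the model on 4 arrays above their array's median, 2 of Tris+DMSO and 2 of Tris+RA. It therefore entered through the groups where it was high, and so did GEM. Both GEM probe sets were above the array median on 0 Tris+DMSO and 0 Tris+RA arrays. The first was above it on 3 Noggin+DMSO and 3 Noggin+RA arrays, and the second on 3 and 1.

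CDC42EP3 was well above background on every array and was higher with either factor than in the control. Its first probe set read 174, 253 and 244 with Tris+DMSO and 765, 654 and 534 with Noggin+DMSO. It read 353, 654 and 551 with Tris+RA and 926, 808 and 1583 with Noggin+RA. Every Noggin+RA array was above all others, every Tris+DMSO array below all others, and the 2 single-factor groups overlapped each other.

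The CDC42EP3 group means were 223 ± 43.4 (SD, n = 3) for Tris+DMSO, 519 ± 153 for Tris+RA, 651 ± 116 for Noggin+DMSO and 1106 ± 418 for Noggin+RA. On the scale of intensity + 16, Noggin+DMSO was 2.79-fold above Tris+DMSO (log2 1.48, SE 0.274) and Noggin+RA 4.54-fold above it (log2 2.18). With RA on both sides, Noggin+RA was 2.07-fold above Tris+RA (log2 1.05). The highest array, replicate 3 of Noggin+RA, was also the highest of its group for the other 4 probe sets. Without it, Noggin+RA minus Tris+DMSO was 1.90 for CDC42EP3 and 1.85 for GEM.

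The second CDC42EP3 probe set was dim and did not pass the filter. It read 17.7, 20.3 and 19.4 with Tris+DMSO, 27.2, 46.1 and 18.2 with Noggin+DMSO, 22.3, 35.0 and 28.9 with Tris+RA, and 32.5, 33.7 and 78.2 with Noggin+RA. It exceeded background on 3 of 12 arrays. Its Noggin+RA and Tris+RA arrays were each above all 3 Tris+DMSO arrays, and its Noggin+DMSO arrays overlapped them. The log2 difference of Noggin+RA minus Tris+DMSO was 0.80, against 2.18 for the first probe set.

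**Figure D2:**
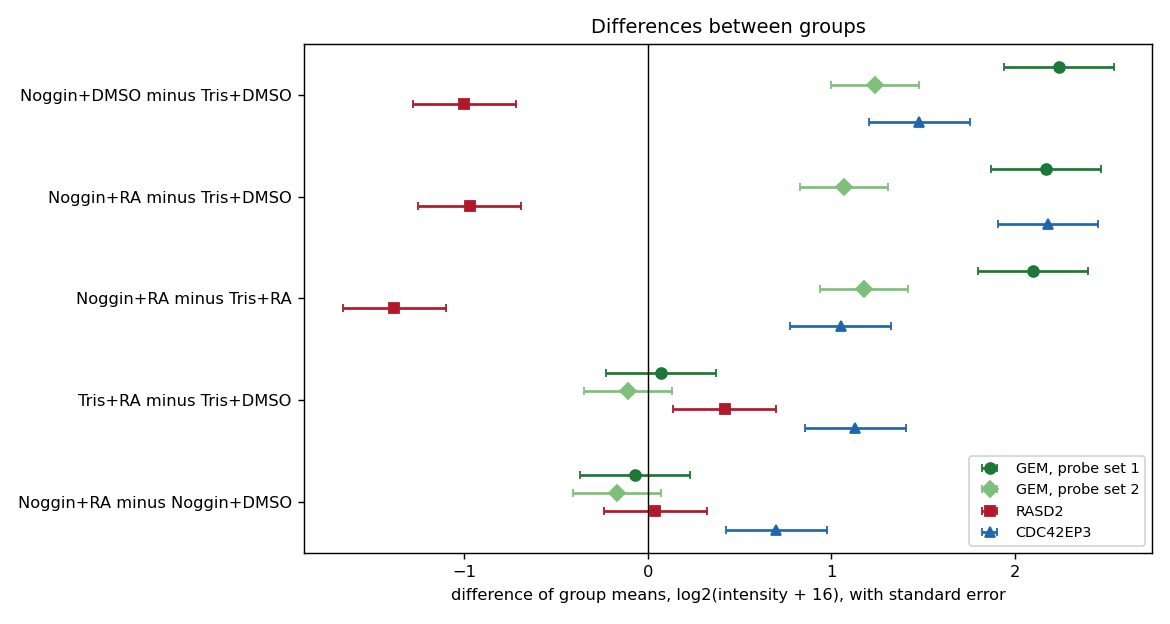
Differences between group means on the log2(intensity + 16) scale, with 1 SE to each side, for the 4 probe sets in the model. GEM lies above 0 and RASD2 below 0 in the 3 comparisons of a Noggin with a Tris group, GEM lies within 1 SE of 0 in both RA comparisons, and CDC42EP3 lies above 0 in all 5.

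The 2 comparisons that differ by RA were not themselves contrasts of the choice and were tested, but neither test is independent of it. Tris+RA against Tris+DMSO shares its control arrays with the contrasts that chose the genes, and the combined treatment that entered the choice includes RA. For CDC42EP3 the difference was 1.13 on the log2 scale, or 2.19-fold (95% confidence interval 1.45 to 3.32), with the 3 arrays of each group not overlapping. It did not pass the test over all probe sets (limma, adjusted p = 0.306, unadjusted p = 0.00145). In this comparison 0% of the 21354 probe sets passed and 1368 had an unadjusted p below 0.05, and 10.4% of probe sets had groups that did not overlap.

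GEM and RASD2 gave no detectable difference with RA alone. The first GEM probe set differed by 0.07 (95% interval -0.58 to 0.72, limma adjusted p = 0.996) and the second by -0.11 (-0.64 to 0.41, adjusted p = 0.989). As both groups were below background for GEM, these differences say only that no signal appeared with RA. GEM passed the filter through the Noggin groups alone, which are not in this comparison. RASD2 differed by 0.42 (-0.20 to 1.03, limma adjusted p = 0.903). This value depended on the low control array, without which it was 0.02. For all 3 genes the intervals still hold changes of moderate size.

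The second test of RA was made in the presence of Noggin, between 2 groups that both entered other contrasts used in the choice. This comparison is the difference between those contrasts. The intervals and p-values of the 3 genes here are therefore a description and not independent evidence. CDC42EP3 was 1.63-fold higher with Noggin+RA than with Noggin+DMSO (95% interval 1.08 to 2.47, log2 0.70), again with no overlap, and did not pass (limma, adjusted p = 0.431, unadjusted p = 0.025). Without replicate 3 of Noggin+RA the log2 difference fell by more than a factor of 1.5, to 0.42. GEM differed by -0.07 (-0.72 to 0.59, limma adjusted p = 0.971), its second probe set by -0.17 (-0.70 to 0.35, adjusted p = 0.882). RASD2 differed by 0.04 (-0.58 to 0.65, limma adjusted p = 0.985). Both groups were below background, so this says only that no signal appeared with RA. Of all probe sets 0.445% passed here, and 17.0% had groups that did not overlap.

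Noggin and RA together can be set against the sum of the single differences, as a description. For CDC42EP3 the single differences of 1.48 and 1.13 add to 2.61 on the log2 scale, and the combined treatment gave 2.18. The departure was -0.43 with an SE of 0.387. For GEM the sum was 2.30 and the combined difference 2.17. For RASD2 the sum was -0.59 and the combined difference -0.97, a departure of -0.38 with an SE of 0.397. For GEM and RASD2 these sums use groups that were not above background, so they depend on the constant added.

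**Figure D3:**
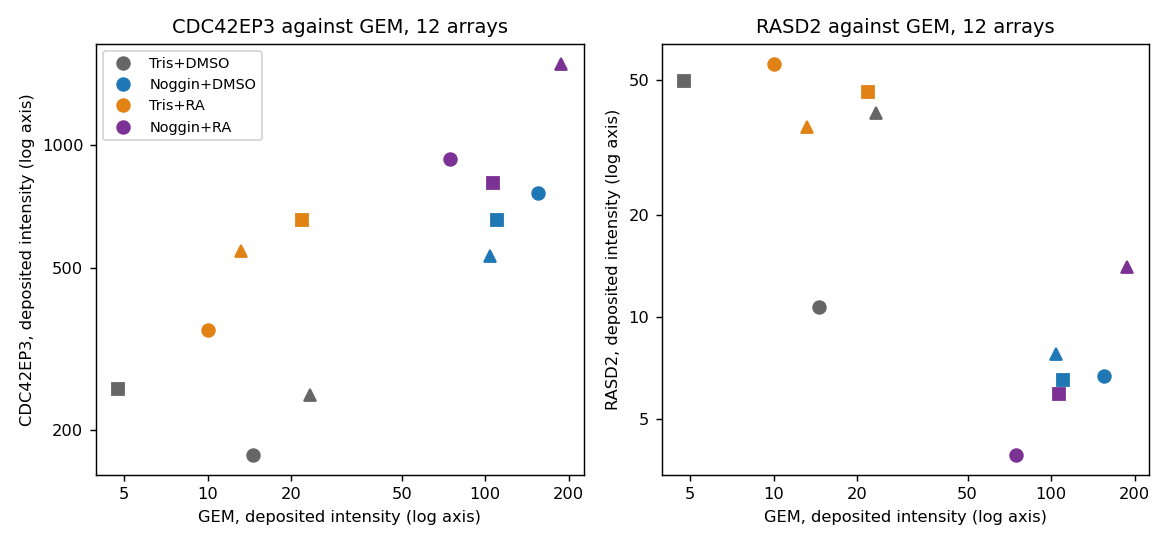
CDC42EP3 (left) and RASD2 (right) against GEM on the 12 arrays, first probe sets, deposited intensity on log axes. Circles, squares and triangles are replicates 1, 2 and 3; the Noggin arrays form a group at high GEM, with CDC42EP3 highest in Noggin+RA and RASD2 low.

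Over the arrays, GEM and CDC42EP3 were high together, and RASD2 was low where GEM was high. Over the 12 arrays GEM correlated with CDC42EP3 at r = 0.781 and with RASD2 at r = -0.799, both mostly set by the separation of groups through which the genes were chosen. After the group means were removed, r was 0.608 for GEM with CDC42EP3 and 0.856 for the second GEM probe set with CDC42EP3. For GEM with RASD2 it was 0.10. RASD2 and CDC42EP3 correlated at r = -0.461 over the arrays and at r = 0.422 once the group means were removed. Part of these deviations is of values below background. Both GEM probe sets were below it on all Tris arrays, the second on all but 1 of the Noggin+RA arrays too, and RASD2 on all Noggin arrays. These points share pools, arrays and scaling, and no test was made of them.

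Each gene's profile over the 12 arrays was also set against those of 9766 other genes. The closest genes were picked on these same arrays, so a shared order of groups follows from the pick. The 5 most like GEM, by Pearson r, were OGN (0.961), RND3 (0.959), MMP23A (0.957), FBLN5 (0.956) and ABLIM1 (0.954). OGN, FBLN5 and MMP23A encode an extracellular matrix proteoglycan, an elastic fibre protein and a metalloprotease, ABLIM1 an actin-binding protein, and RND3 a small GTPase that is known to inhibit ROCK1. OGN averaged 27.2 ± 1.21 (SD, n = 3) with Tris+DMSO, 74.8 ± 3.60 with Noggin+DMSO, 21.1 ± 2.82 with Tris+RA and 85.2 ± 22 with Noggin+RA. It was above background on 0 of 6 Tris arrays and 6 of 6 Noggin arrays. It passed the filter through the Noggin arrays alone, where it was high. FBLN5 averaged 73.1 ± 1.22, 170 ± 26.6, 91.3 ± 9.25 and 165 ± 46.3 in the same order of groups.

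The 5 profiles most like CDC42EP3 were PLPP3 (0.950), NT5DC2 (0.949), LBH (0.944), SDC2 (0.943) and PLAU (0.940). PLPP3 is a lipid phosphatase and SDC2 a heparan sulphate proteoglycan of the cell surface. PLAU, the urokinase plasminogen activator, averaged 119 ± 26.2 (SD, n = 3) with Tris+DMSO, 248 ± 67.8 with Tris+RA, 289 ± 26.9 with Noggin+DMSO and 920 ± 344 with Noggin+RA. LBH, a transcription cofactor of limb bud and heart, averaged 948 ± 118, 1450 ± 173, 1318 ± 48.2 and 1816 ± 422 in those groups. Both were lowest in the control and highest with both factors, an order that the pick by correlation with CDC42EP3 selects for.

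The profiles most like RASD2 were less close: MANBAL13 (0.892), APOPT1 (0.890), ETNK1 (0.887), UBE2V2 (0.886) and SOX8 (0.884). APOPT1, a mitochondrial protein gene, averaged 629 ± 87.3 (SD, n = 3) with Tris+DMSO, 316 ± 41.7 with Noggin+DMSO, 631 ± 59.0 with Tris+RA and 361 ± 17.9 with Noggin+RA. SOX8, a SOXE transcription factor of neural crest, averaged 132 ± 26.6, 110 ± 15.3, 149 ± 4.92 and 114 ± 13.2. Both were lower on average on the Noggin arrays, SOX8 by little.

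The relatives of GEM and RASD2 were looked at next, from a list of RGK and RAS-like GTPases. Of 14 listed genes 10 were on the array and 5 passed the filter, and 0 of these 5 passed the test in any of the 5 pairwise comparisons (limma). None of the 5 is an RGK protein, so no RGK relative of GEM was tested. In Noggin+DMSO against Tris+DMSO, 3 of the 5 had an unadjusted p below 0.05, where 5.67% of all genes passed and 26.4% had such a p, so 0 of 5 is near the background. DIRAS2, a brain RAS-like GTPase, averaged 54.4 ± 14.4 (SD, n = 3), 142 ± 23.1, 62.1 ± 28.5 and 221 ± 113 in Tris+DMSO, Noggin+DMSO, Tris+RA and Noggin+RA. Its limma adjusted p was 0.0721 for Noggin+DMSO and 0.0563 for Noggin+RA, both against Tris+DMSO. RASD1, the closest relative of RASD2, averaged 116, 120, 119 and 122 in the 4 groups and differed by 0.12 with Noggin alone (limma adjusted p = 0.785).

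The relatives and partners of CDC42EP3 gave 0 calls in any pairwise comparison (limma), which for lists of this size is near the share of 5.67% over all genes with Noggin alone. Of the CDC42EP family and other CDC42 effectors, 15 genes passed the filter, and their differences with Noggin alone lay between -0.46 and 0.46 on the log2 scale, with 2 at an unadjusted p below 0.05. CDC42EP1 averaged 261, 206, 214 and 271 in Tris+DMSO, Noggin+DMSO, Tris+RA and Noggin+RA, and CDC42EP4 averaged 411, 478, 534 and 522. CDC42 itself, the GTPase they bind, averaged 3291, 3036, 3229 and 3243. The 8 septins that passed the filter lay between -0.24 and 0.65 with Noggin alone, and 3 of them had an unadjusted p below 0.05. SEPTIN9 gave the 0.65 (limma adjusted p = 0.125).

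Across the 9 lists of relatives, partners and regulators, 131 genes passed the filter and 5 rose with Noggin alone, while 0 fell and 34 had an unadjusted p below 0.05. That is 3.82% of the list genes, against 3.41% of all 10158 genes rising and 2.26% falling in that comparison. The median difference was 0.011 in the lists and 0.036 over all genes. The lists as a whole thus stood near the background. They were chosen with earlier results of these data known, so this comparison is not independent of the data.

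**Figure D4:**
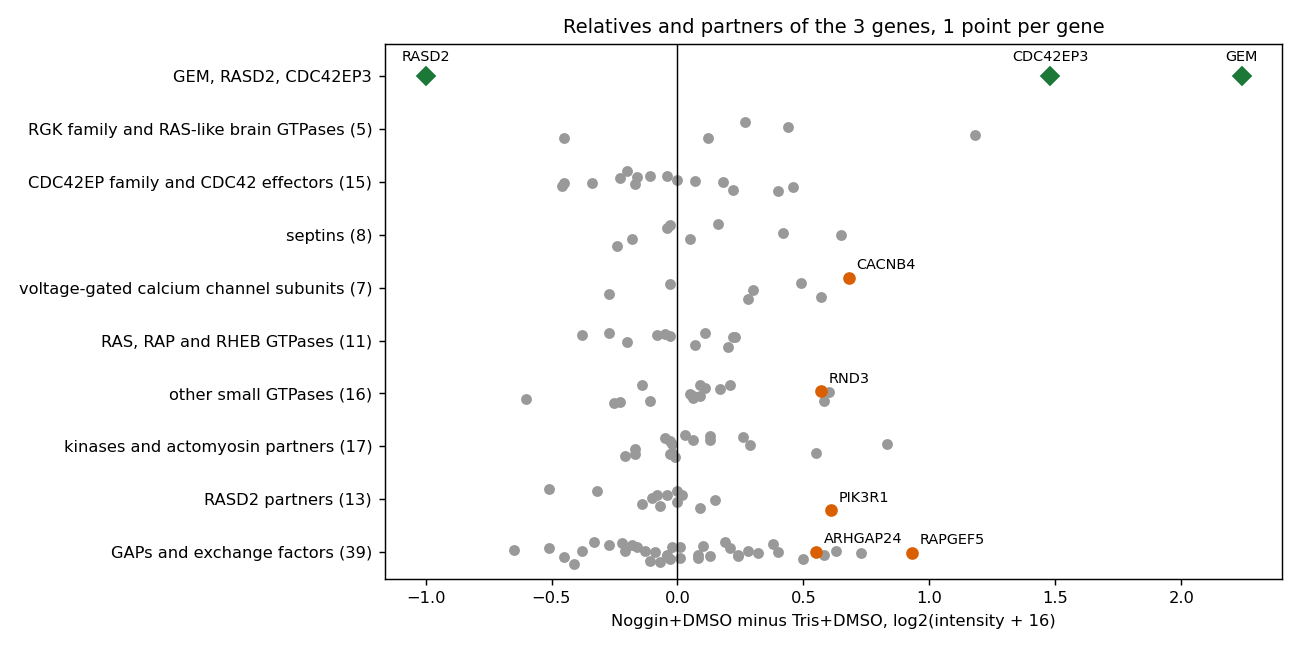
Noggin+DMSO minus Tris+DMSO on the log2(intensity + 16) scale for the genes of the 9 lists, 1 point per gene at its brightest probe set, with the number of genes in parentheses. Orange points passed the test, green diamonds are the 3 genes, and points are spread vertically for display; most list genes lie between -0.5 and 0.5.

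The 5 genes that rose with Noggin alone fall in different lists. RAPGEF5, an exchange factor that activates RAP GTPases, averaged 338 with Tris+DMSO and 656 with Noggin+DMSO (log2 0.93, SE 0.17, limma adjusted p = 0.0144). CACNB4, a beta subunit of the voltage-gated calcium channels that GEM is known to bind through their beta subunits, averaged 26 ± 0.976 (SD, n = 3) and 51.2 ± 3.45 (log2 0.68, SE 0.132, limma adjusted p = 0.0176). Its control arrays were not above background, and its Noggin+DMSO mean was 1.3-fold above their background level. The Noggin+DMSO arrays had a higher background, 41 to 49, and CACNB4 read 49 to 55.2 on them. The 1.3 is therefore not a firm lower limit. It passed the filter through 3 Noggin+DMSO and 2 Noggin+RA arrays and 0 of 6 Tris arrays, that is, through the groups where it was high. RND3 averaged 1440 ± 15.2 and 2153 ± 155 (log2 0.57, SE 0.128, limma adjusted p = 0.0289). ARHGAP24, which switches off RAC and CDC42, rose by 0.55 (limma adjusted p = 0.0229), and PIK3R1, a regulatory subunit of PI3 kinase, by 0.61 (adjusted p = 0.0233). RND3 passed on 1 of its 2 probe sets and PIK3R1 on 2 of 2.

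These rises were small and some rested on single arrays. With each of the 12 arrays left out in turn, RAPGEF5 passed in 11 fits, CACNB4 in 10, PIK3R1 and ARHGAP24 in 8 each and RND3 in 6, and the differences kept their direction in all of them. Without Noggin+DMSO replicate 3, 0 of the 131 genes passed. Quantile normalisation and median centring shifted all probe sets by a median of -0.105 and -0.171 in this comparison; all 5 genes passed under the first, CACNB4 and RAPGEF5 under the second, and 0 of the 5 with the GAPDH ratio of each array as a covariate. In that fit the differences were 0.72 for CACNB4, 0.73 for RND3, 1.02 for RAPGEF5, 0.76 for ARHGAP24 and 0.26 for PIK3R1.

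In the other comparisons the lists stood near the background too. With Noggin+RA against Tris+DMSO 0 of 131 passed and 20 had an unadjusted p below 0.05 (limma). Of all genes 0.975% passed there and 15.7% had such a p. With Tris+RA against Tris+DMSO 0 passed and 6 had such a p, against 0% and 6.63% of all genes. With Noggin+RA against Noggin+DMSO 0 passed and 14 had such a p, against 0.571% and 9.93% of all genes. In Noggin+RA against Tris+RA 21 had such a p, against 13.3% of all genes. Only RND3 passed in that comparison, with a rise of 0.75 (limma adjusted p = 0.048), where 0.276% of all genes passed. It no longer passed after quantile normalisation, after median centring, without the filter, with 1 added before the logarithm or with only the 2 groups in the fit.

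ROCK1, the kinase that GEM is known to restrain, averaged 1048, 1025, 1072 and 1098 in Tris+DMSO, Noggin+DMSO, Tris+RA and Noggin+RA. MYH9, a non-muscle myosin heavy chain downstream of it, averaged 235 ± 64.7 (SD, n = 3), 428 ± 108, 338 ± 51.1 and 490 ± 98.4, and missed the threshold with Noggin alone (log2 0.83, limma adjusted p = 0.0557).

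The genes that lie next to the 3 on their chromosomes gave 0 calls, a count near the background for so few. Of the 12 genes that are the 2 nearest on each side in the RefSeq order, 10 were measured and 0 passed in any pairwise comparison (limma), with 3 at an unadjusted p below 0.05 for Noggin alone, against 26.4% of all genes. PDP1 and RAD54B beside GEM differed by -0.48 and -0.10 with Noggin alone, and RBFOX2 and MCM5 beside RASD2 by 0.08 and -0.42. YIPF4 and BIRC6 beside CDC42EP3 differed by 0.35 and -0.10. RAD54B and FSBP, both beside GEM, are neighbours of each other and may share transcribed sequence.

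Known targets of the 2 factors were measured on the same arrays. Of 14 BMP target genes 7 fell with Noggin alone (ID1, ID2, ID3, MSX1, SMAD6, ATOH8 and GATA3), with a median difference of -0.928 over the 14, where 2.26% of all genes fell. With Noggin+RA against Tris+DMSO only ATOH8 fell, where 0.975% of all genes passed. The median over the 14 was still -0.361 there, against 0.026 over all genes. With Noggin+RA against Tris+RA 0 of the 14 passed, where 0.276% of all genes passed. Their median was -0.468, against 0.019 over all genes, so the lack of calls does not show a lack of response. When RA was added to Noggin, 2 of them rose, where 0.571% of all genes passed: ID1 by 1.26 (limma adjusted p = 0.00525), and GATA3, which was above background on only 1 of 3 Noggin+DMSO arrays. GEM differed by -0.07 in that comparison. Of 11 RA target genes 4 rose there, among them CYP26A1 by 3.40 (limma adjusted p = 0.0315) and DHRS3 by 1.88 (adjusted p = 0.0313), and 1 fell, ALDH1A3 (log2 -2.42, adjusted p = 0.0313). With RA alone 0 of the 11 passed, where 0% of all genes passed. Their median difference there was 0.625, against -0.002 over all genes. Members of this list also moved with Noggin alone, where 5.67% of all genes passed. TGM2 and ALDH1A3 rose, the latter from 152 to 1353, and ALDH1A2 fell. ALDH1A2 was also lower with Noggin+RA than with Tris+RA (limma adjusted p = 0.0282). The fall of ALDH1A3 with added RA thus started from a level raised with Noggin. The difference between GEM and these genes was not tested.

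Some properties of the arrays moved with Noggin too. The ratio of the 5′ to the 3′ GAPDH control probe sets, which falls when RNA or its copies are shorter, was 0.695 ± 0.0409 (SD, n = 6) on the Noggin arrays and 0.815 ± 0.0266 on the Tris arrays, with no overlap. The exact two-sided permutation p was 0.00216, the smallest that 6 against 6 arrays allow, and 0.00649 after adjustment over the 12 array measures compared. This ratio and Noggin cannot be told apart for any of the 3 genes. The background level also differed, at 42.9 ± 3.67 on Noggin and 35.2 ± 2.73 on Tris arrays. So did the array median, which sets the filter, at 42.8 ± 2.47 and 37.1 ± 2.13. Both were higher on the Noggin arrays, where GEM and CDC42EP3 were on average higher and RASD2 lower. For GEM, Noggin+DMSO minus Tris+DMSO was 2.06 after median centring and 2.12 after quantile normalisation, against 2.24 in the main fit. The part of these levels in the 3 genes' differences was not tested beyond such rescaled fits. For RA alone, the ratio overlapped between the groups, at 0.784 to 0.849 with Tris+RA and 0.813 to 0.839 with Tris+DMSO. With Noggin present it did not, at 0.703 to 0.736 with Noggin+RA and 0.619 to 0.699 with Noggin+DMSO. A fit with the ratio as a covariate is given at the end. In it, the CDC42EP3 differences of these 2 groups from Tris+DMSO lay closer together than in the main fit. The part of the ratio in the CDC42EP3 difference was not tested beyond that fit.

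Markers of cell types were summed on each array for the same purpose. The mesenchyme sum, from 7 of 8 markers, was 1139 ± 252 (SD, n = 6) on Noggin and 2026 ± 406 on Tris arrays. These did not overlap (exact permutation, adjusted p = 0.00649). In Tris+DMSO and Noggin+DMSO its brightest marker PRRX1 averaged 1342 and 400, TWIST1 269 and 184, and DLX1 148 and 62.5. The BMP targets MSX1 and MSX2, also in the sum, averaged 323 and 153, and 125 and 49.9. PDGFRA averaged 68.3 and 85.8, and ALX4 was not above background on any array. The epithelium sum, from 5 of 7 markers, was 5583 ± 336 and 4787 ± 512 (exact permutation, adjusted p = 0.0312). EPCAM and CLDN1 made up most of it, averaging 2259 and 2779, and 1533 and 1653, in Tris+DMSO and Noggin+DMSO. TP63 averaged 299 and 364, GRHL3 147 and 220, and CDH1 went the other way, at 509 and 458. With Noggin alone 0 of these 5 passed (limma), where 5.67% of all genes passed. The red blood cell sum, from 6 of 9 markers, ranged from 7613 to 15932 with Tris+DMSO, 16963 to 20839 with Noggin+DMSO, 12130 to 17796 with Tris+RA and 15554 to 17965 with Noggin+RA (exact permutation of Noggin against Tris arrays, adjusted p = 0.0736). Of its 6 markers 2 rose with Noggin alone, where 3.41% of all genes rose. They were SLC4A1, from 131 to 852 (limma adjusted p = 0.0183), and ANK1, from 69.1 to 320 (adjusted p = 0.0209). EPB42 and the globins HBZ, HBAD and HBE did not pass (limma adjusted p = 0.0665, 0.198, 0.109 and 0.327). The part of these cell types in the 3 genes' differences was not tested.

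For 2 of the genes other markers bear on single groups or arrays. The muscle sum, from 7 of 7 markers, ranged from 509 to 723 with Tris+DMSO, 633 to 829 with Noggin+DMSO, 864 to 947 with Tris+RA and 1023 to 1426 with Noggin+RA. MYL4 and TNNC1 made up most of it, and MYF5 ran differently, averaging 65.3, 39.3, 76.2 and 40.7 in the 4 groups in that order. Of 4 muscle markers that passed the filter, 2 rose with Noggin+RA against Tris+DMSO, where 0.975% of all genes passed. They were MYL4 (log2 1.21, limma adjusted p = 0.0287) and TNNC1 (log2 1.10, adjusted p = 0.0174). The array with the highest sum was the one highest for CDC42EP3. Of its markers MYOD1, MYOG and DES were not above background on any array, and its part was not tested. The neuron sum, from 8 of 8 markers, was 5818, 3049 and 1488 on the 3 Tris+DMSO arrays, on which RASD2 read 10.7, 49.6 and 39.9. The array richest in neuron markers was thus the lowest for RASD2 in that group. On the 3 Tris+RA arrays the neuron sum was 5448, 4142 and 4675 and RASD2 read 55.7, 46.0 and 36.3. There the array richest in neuron markers was the highest for RASD2. The part of neurons in the RASD2 values was not tested. Between Noggin and Tris arrays the neuron sum was 3282 ± 1369 (SD, n = 6) and 4103 ± 1614 (exact permutation, adjusted p = 0.465).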

How the data were processed

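RNA from 12 pools was hybridised to a 1-colour Affymetrix chicken array after two-cycle labelling of 500 ng of total RNA, per the labels' protocols. The authors deposited probe set intensity on a linear scale; by its values each array had been scaled to a trimmed mean (without the highest and lowest 2%) of 150.03, and no source used here names the summarisation software or a background step. Such scaling moves other genes the opposite way when many shift together. Of 38535 probe sets, 37693 were for chicken and 21354 of these were above their array's median on at least 3 of 12 arrays.

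The 4 group means were fitted together on log2(intensity + 16) by limma 3.58.1 in R 4.3.3. Tests were two-sided, with Benjamini-Hochberg adjustment over the 21354 probe sets and a threshold of 0.05. The fit was tested on simulated data, and other constants, scalings, filters, covariates, a replicate block and leaving out each array were tried. Genes in lists are represented by their brightest probe set. A lower limit of a fold sets the brighter group's mean log2 value against that of the dimmer group. The dimmer group's values were raised to their array's background level where they were below it. The background of the brighter group's arrays does not enter this limit. Named genes were the 3 genes, the 5 best-correlated genes of each, and list members. The 3 genes and the lists were chosen with earlier results of these data known. Symbols come from the platform annotation. Neighbours come from the RefSeq table of assembly GRCg7b, whose start positions set the order of genes and were not used otherwise. The number of arrays limits the precision.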

Additional observations from a re-analysis of the deposited data

How the results depend on the processing

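Of the 3 genes' differences recomputed under other settings or with 1 array left out, 22 of 405 moved by more than the spread between arrays. The sign was not kept in 0 of 201 Noggin differences, 8 of 140 RA differences and 5 of 64 departures from the sum. For the second GEM probe set it was not kept in 0 of 63, 2 of 44 (0.14 for RA alone without Tris+RA replicate 1 and 0.03 for RA with Noggin without Noggin+RA replicate 2) and 7 of 20. With 1 array left out, the second GEM probe set ranged from -0.25 to 0.14 for RA alone. No adjusted p of the genes' RA differences crossed the threshold under any setting tried. Because GEM and RASD2 lie near or below background, their log2 differences follow the constant added. In the order Noggin+DMSO minus Tris+DMSO, Noggin+RA minus Tris+DMSO and Noggin+RA minus Tris+RA, adding 64 gave 1.26, 1.22 and 1.20 for GEM and -0.43, -0.42 and -0.61 for RASD2, and adding 1 gave 3.24, 3.16 and 2.92 for GEM and -1.86, -1.86 and -2.54 for RASD2. With the GAPDH ratio as a covariate, Noggin+DMSO minus Tris+DMSO was 2.78 for GEM and 2.43 for CDC42EP3, the other 2 differences were 2.82 and 1.58 for CDC42EP3, and its departure from the sum was -0.85. Averaging all probe sets of a gene gave 1.74, 1.62 and 1.64 for GEM, 0.92 and 1.49 for the first 2 of CDC42EP3, and turned GEM with RA alone to -0.02. Median centring turned GEM with RA and Noggin to 0.00. RASD2 and the second GEM probe set did not pass a filter of 6 arrays.

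With 1 array left out, the 3 Noggin differences, in the same order, ranged from 1.99 to 2.45, 1.85 to 2.44 and 1.78 to 2.37 for GEM, from -1.40 to -0.75, -1.36 to -0.71 and -1.56 to -1.26 for RASD2, and from 1.32 to 1.61, 1.90 to 2.38 and 0.76 to 1.24 for CDC42EP3. RA alone ranged from -0.18 to 0.28 for GEM, with the sign also turned at -0.09, from 0.02 to 0.67 for RASD2 and from 0.95 to 1.38 for CDC42EP3. RA with Noggin ranged from -0.38 to 0.20, with the sign also turned at 0.09, from -0.14 to 0.16 and from 0.42 to 0.90. The departure from the sum ranged from -0.45 to 0.13, -0.64 to 0.01 and -0.72 to -0.24.

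The number of probe sets called depends more on the settings. In the order Noggin+DMSO minus Tris+DMSO, Noggin+RA minus Tris+DMSO, Tris+RA minus Tris+DMSO, Noggin+RA minus Noggin+DMSO and Noggin+RA minus Tris+RA, 1058, 173, 0, 95 and 46 were called, and leaving 1 array out gave 259 to 1100, 33 to 167, 0 to 21, 25 to 94 and 12 to 74. The lowest counts came without Noggin+DMSO replicate 3 in the first, Tris+DMSO replicate 2 in the second, Noggin+DMSO replicate 2 in the fourth and either Tris+RA replicate 2 or Tris+RA replicate 3 in the last, and the 21 without Tris+RA replicate 1. For the interaction 0 were called (1274 at an unadjusted p below 0.05), 0 to 1 with 1 array left out and 1 with 64 added. Adding 64 called 305, 10, 155 and 72 in the last 4, and adding 1 called 51 and 18 in the last 2. The GAPDH covariate left 0, 2, 1 and 0 in those other than RA alone, where 0 were called without it. Median centring called 1839 in the first and 2 for RA alone; no filter left 676, 63, 45 and 16 in those other than RA alone. Fitting only the 2 groups compared left 531, 4, 32 and 1 in the same 4, and an adjusted p below 0.10 gave 2514, 422, 2, 196 and 118 in all 5. Trended and robust moderation called 311, 8 and 80 in the second, the RA alone and the last comparison, the filter of 6 arrays called 2 for RA alone, and quantile normalisation 28 in the last. Rises were 59.9% of the calls with Noggin alone, 44.4% after quantile normalisation and 18.7% after median centring.

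Of the 131 list genes, 5, 0, 0, 0 and 1 were called in the same order, and 0 to 8, 0 to 3, 0 to 0, 0 to 1 and 0 to 2 with 1 array left out. With Noggin alone 15 were called with 64 added or with trended and robust moderation, 10 with median centring, 8 with the filter of 6 arrays, 17 at an adjusted p below 0.10 and 0 with the GAPDH covariate. With both factors against the control 4 were called with 64 added, with trended and robust moderation or at 0.10, 3 with the filter of 6 arrays and 1 with median centring. In the last comparison 2 were called at 0.10, and 0 with 1 added, with the GAPDH covariate, median centring, quantile normalisation, no filter, only the 2 groups compared, or the replicate block. The cause of these changes was not tested, except that fewer arrays enter when groups or arrays are left out.

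Replicate numbers gave no sign of pairing the samples. Deviations from group means correlated at -0.0978 to 0.0695 over the 18 pairs of arrays with the same number, and 0 of them exceeded 0.1. Over the 36 pairs with different numbers 5 exceeded 0.1, the highest at 0.167. A batch shared under another numbering was not tested. With the replicate number as a block, the counts called were 83 for Noggin+RA minus Tris+DMSO, 42 for Noggin+RA minus Noggin+DMSO and 12 for Noggin+RA minus Tris+RA. RND3 did not pass with Noggin alone under the block (limma adjusted p = 0.053).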
